A study of Gallus gallus with 6 samples.

Results

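Solute carriers are membrane proteins that move sugars, amino acids, ions, metals, vitamins and metabolites across cell and organelle membranes, either down a gradient or coupled to one. Their genes are named SLC, with a number for the family and a letter and number for the member, and members of one family share sequence and often, but not always, a kind of substrate. Here all genes whose array symbol follows that pattern were taken, which gave 282 genes of 47 families on 659 probe sets, out of 13009 named genes on the array. They include 4 proteins that are named after a carrier without being one, SLC9A3R1, SLC9A3R2, SLC4A1AP and SLC7A6OS, so 278 are carriers by name. A gene with several probe sets was represented by the one with the highest mean over all 6 arrays.

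RNA came from cultures of dermal myofibroblasts, the matrix-making and contractile fibroblasts of skin, grown out of pieces of skin from brown Leghorn chick embryos of day 10. The inhibitor group received TGFBR1 Kinase Inhibitor II, a small molecule that blocks the receptor kinase TGFBR1, at 500 nM in DMSO for 48 h, and the DMSO group received 0.1% DMSO alone. Each group had 3 biological replicates with 1 Affymetrix chicken array each, and the medium of both held 4% fetal bovine and 2% chicken serum. No added TGF-beta is named in the labels, and the series title names the genes under TGF-beta control as the question.

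Values are log2 intensities, and a gene was tested when at least 3 of its 6 arrays reached a log2 value of 4, a level below which these values gather at a floor. This held for 143 of the 282 genes (50.7%), against 62.4% of all named genes, and 6 of the 143 (SLC4A11, SLC17A9, SLC9A9, SLC2A6, SLC25A26 and SLC9A3) met it with their 3 DMSO arrays while fewer than 3 inhibitor arrays reached that value. SLC4A11 and SLC17A9, 2 of the 34 calls below, are thus genes that could enter the test through the DMSO group alone. The other 139 genes were not tested. The labels call the replicates biological without saying that they came from separate embryos, so a p-value speaks only of the spread among these cultures. A gene passed the test when its limma adjusted p (Benjamini-Hochberg over 16567 tested probe sets) was under 0.05. Same-numbered arrays of both groups deviated together, so the fit was repeated with the replicate number as a block, and that adjusted p is given where it changes a call. The ± value after a difference is the SE of the fit without the block, also where a block adjusted p stands beside it. It is not the error behind that p: for SLC6A6 the SE was 0.46 without and 0.11 with the block. Levels are not compared between genes, since probe sets differ in how strongly they bind.

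The 6 arrays each had 16356 to 16594 probe sets at or above a log2 value of 4. Replicate 2 of both groups stood apart from the others on the second principal component, which held 18.4% of the variance, whereas the first, with 59.1%, separated inhibitor from DMSO arrays. All 14 fibroblast and myofibroblast markers were above the filter, with COL1A1 at a mean of 15.39 in inhibitor and 15.50 in DMSO cultures. Among them PDGFRB rose (1.20 ± 0.18, limma adjusted p 0.00919) and POSTN fell (-2.81 ± 0.55, 0.0217). With the replicate block TWIST1 (0.85 ± 0.24, block adjusted p 0.00366) was also higher, and LUM (-1.95 ± 0.55, 0.00421) and COL1A2 (-0.35 ± 0.15, 0.0220) lower. Of 6 keratinocyte markers on the array KRT14 alone was tested and did not pass, and the skeletal muscle markers MYOD1, MYF5, MYOG, DES and PAX7 were all below the filter. The endothelial marker PECAM1 fell (-0.82 ± 0.20, limma adjusted p 0.0409), ERG did not pass, and CDH5, KDR, TEK and VWF were below the filter. VWF reached a log2 value of 4 only in replicate 2, at 4.46 in inhibitor and 4.98 in DMSO. The summed level of the endothelial list was 10.58 to 11 in inhibitor and 10.29 to 10.78 in DMSO arrays. It rests mostly on ERG, which averaged 10.69 in inhibitor and 10.49 in DMSO cultures. Of 5 leukocyte markers on the array 4 were tested and none passed, and PTPRC, the pan-leukocyte phosphatase, averaged 8.37 in inhibitor and 7.62 in DMSO cultures while the myeloid factor SPI1 was at 2.41 in inhibitor and 2.43 in DMSO cultures. The summed level of that list was 8.70 to 9.14 in inhibitor and 8.17 to 8.44 in DMSO arrays (log2), and that of the melanocyte and Schwann list, which rests on MITF (0.97 ± 0.27, limma adjusted p 0.0619, and 0.00729 with the block), with TYR, DCT, PMEL and SOX10 below the filter, was 8.96 to 9.35 in inhibitor and 7.74 to 8.69 in DMSO arrays. These last 2 sums were higher in every inhibitor array than in any DMSO array. The leukocyte sum rests mostly on PTPRC, which passed in neither fit (0.74 ± 0.22, limma adjusted p 0.0780, and 0.070 with the block). The groups overlapped for CD74 (0.58), CTSS (0.28) and CSF1R, which went the other way (-0.21). The sum of the fibroblast and myofibroblast list was lower in every inhibitor array, at 17.53 to 17.78, against 17.83 to 18.03 in DMSO arrays. This lower sum rests mostly on LUM and POSTN and does not describe the list as a whole. COL1A1 (-0.11), TAGLN (-0.18), DCN (-0.03), VIM (0.003), COL3A1 (0.004), PDGFRA (0.02), THY1 (0.24), PRRX1 (0.25) and ACTA2 (0.46) passed in neither fit. The part of the marker levels in the results below was not tested. In such bulk RNA, a change in the number of cells of a type and a change in RNA per cell cannot be told apart. The 3′ minus 5′ signal of actin, a sign of RNA integrity, was 1.57 ± 0.08 in inhibitor and 1.43 ± 0.05 in DMSO arrays (SD, n = 3 each, exact two-sided permutation p 0.1, the smallest this design allows). For GAPDH it was -0.13 ± 0.05 in inhibitor and -0.10 ± 0.07 in DMSO arrays (exact permutation p 0.6), and for EEF1A1 0.50 ± 0.03 in inhibitor and 0.50 ± 0.05 in DMSO arrays (exact permutation p 1).

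With the receptor kinase inhibited, 34 of the 143 tested genes differed (23.8%, against 15.6% of all genes), 13 of them higher and 21 lower. Over all 8122 tested genes 8.16% were higher and 7.49% lower, so the share of higher solute carrier genes (9.09%) was near the background and the share of lower ones (14.7%) was above it. With the replicate number as a block 61 differed (42.7%, against 31.6% of all genes), 23 higher (16.1%, against 16.5%) and 38 lower (26.6%, against 15.1%). Counts by class or list below stand beside these shares of all genes, and no class or list was tested as a set. Over all probe sets 13.8% passed without and 28.1% with the block. The median log2 difference of the tested solute carrier genes was -0.07, against 0.01 over all tested genes, and their median absolute difference was 0.34, against 0.24. At least a 2-fold difference was reached by 12 of the 34 called genes, 6 in each direction (8.39% of the solute carrier genes tested, against 6.96% of all genes). The inhibitor and DMSO arrays overlapped for none of the 34, and groups that do not overlap were found for 68 of the 143 tested genes (47.6%, against 38.6% of all genes).

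**Figure D1:**
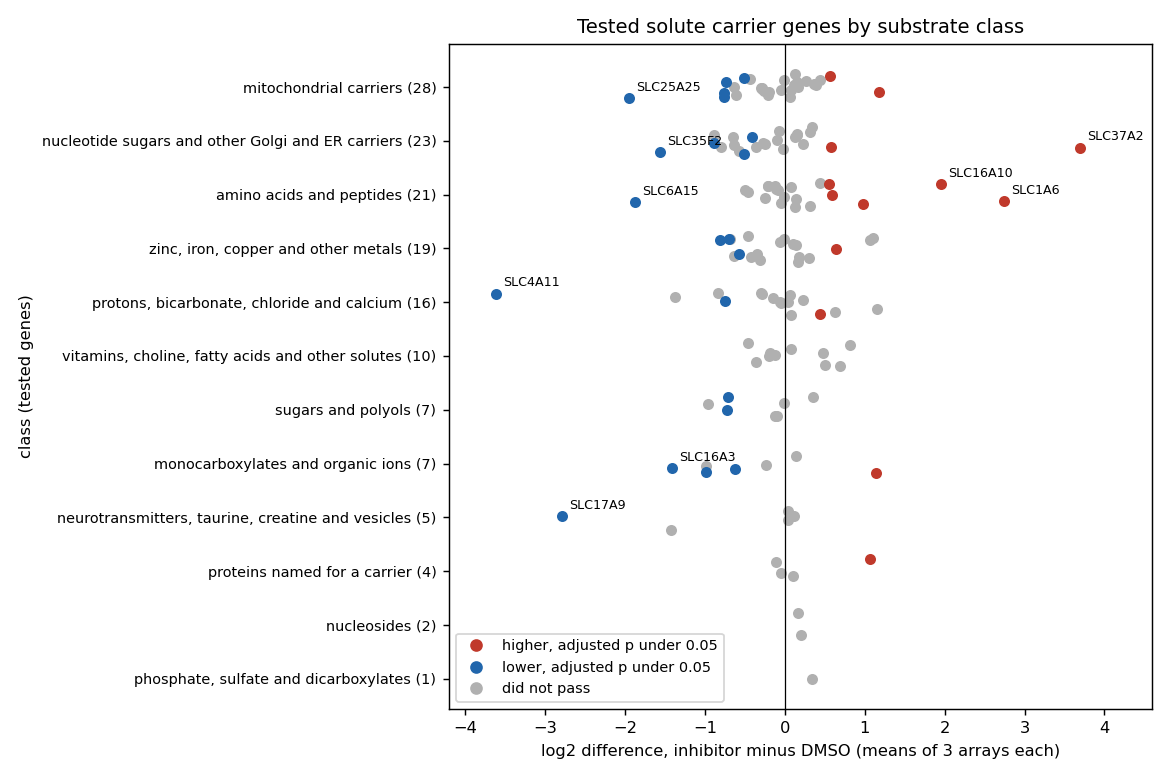
Log2 difference, inhibitor minus DMSO, of each tested solute carrier gene (points) by substrate class, with the number of tested genes in brackets. Called genes are coloured, and the widest differences are SLC37A2 at 3.70 and SLC4A11 at -3.61.

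Carriers of the Golgi and the endoplasmic reticulum, many of them for nucleotide sugars, included the largest rise among the tested solute carrier genes. SLC37A2, a phosphate-linked glucose-6-phosphate exchanger of the endoplasmic reticulum, had log2 values of 8.58, 8.02 and 9.04 in inhibitor arrays 1 to 3, against 4.03, 4.70 and 5.83 in DMSO arrays. All inhibitor arrays lay above all DMSO arrays, of which DMSO 1 was next to the filter value. The difference was 3.70 ± 0.49 (SE, 3 arrays per group), or 13.0-fold (limma adjusted p 0.00598), and a second, dimmer probe set of the gene rose by 3.25. The size of this fold may depend in part on how GCRMA compresses dim values such as that of DMSO 1, which was not tested. Another member of the family moved the other way: SLC37A3 fell to 9.29, 9.24 and 9.20 in inhibitor arrays, against 10.40, 9.78 and 10.21 in DMSO arrays (-0.88 ± 0.17, limma adjusted p 0.0191), and SLC37A4, the glucose-6-phosphate carrier that works with glucose-6-phosphatase, stood at 0.15 without passing.

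Outside family SLC37, 3 of the 4 members of that class that passed were lower. SLC35F2, of the nucleotide sugar carrier superfamily and known in human cells to take up the drug YM155, had 4.87, 5.64 and 5.69 in inhibitor arrays, against 6.85, 6.97 and 7.07 in DMSO arrays. This is 2.96-fold lower (-1.56 ± 0.24, limma adjusted p 0.0104), and of its 2 dimmer probe sets, at -1.23 and -1.18, the first passed. SLC33A1, which brings acetyl-CoA into the endoplasmic reticulum, fell (-0.51 ± 0.11), and so did SLC35B4, a Golgi carrier for UDP-xylose and UDP-N-acetylglucosamine (-0.40 ± 0.10, limma adjusted p 0.0499), with dimmer probe sets at -1.11, which passed, -1.08 and -0.38. SLC35E2B, a member with no assigned substrate, rose (0.57 ± 0.14). Of the 23 genes tested in this class 2 rose and 4 fell (8.16% and 7.49% of all genes), with a median of -0.25. With the replicate block 2 rose and 9 fell (16.5% and 15.1% of all genes). The additional falls with the block were SLC35E1 (-0.65 ± 0.19, block adjusted p 0.00960), SLC35F5 (-0.64 ± 0.23, 0.00889), SLC35G2 (-0.58 ± 0.19, 0.00828), SLC35A3, a UDP-N-acetylglucosamine carrier (-0.79 ± 0.30, 0.0290), and SLC35E3 (-0.24 ± 0.11, 0.0391). Leaving out single arrays ended the calls of SLC35B4 (any array, limma adjusted p up to 0.144), SLC37A3 (any but DMSO 2, up to 0.0720), SLC35E2B (any but inhibitor 2, up to 0.136) and SLC33A1 (DMSO 1, DMSO 2, inhibitor 1 or inhibitor 3, up to 0.107). The carriers of CMP-sialic acid, SLC35A1 (0.23), of GDP-fucose, SLC35C1 (0.15), and of the sulfate donor PAPS, SLC35B2 (-0.27) and SLC35B3 (-0.07), did not pass.

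**Figure D2:**
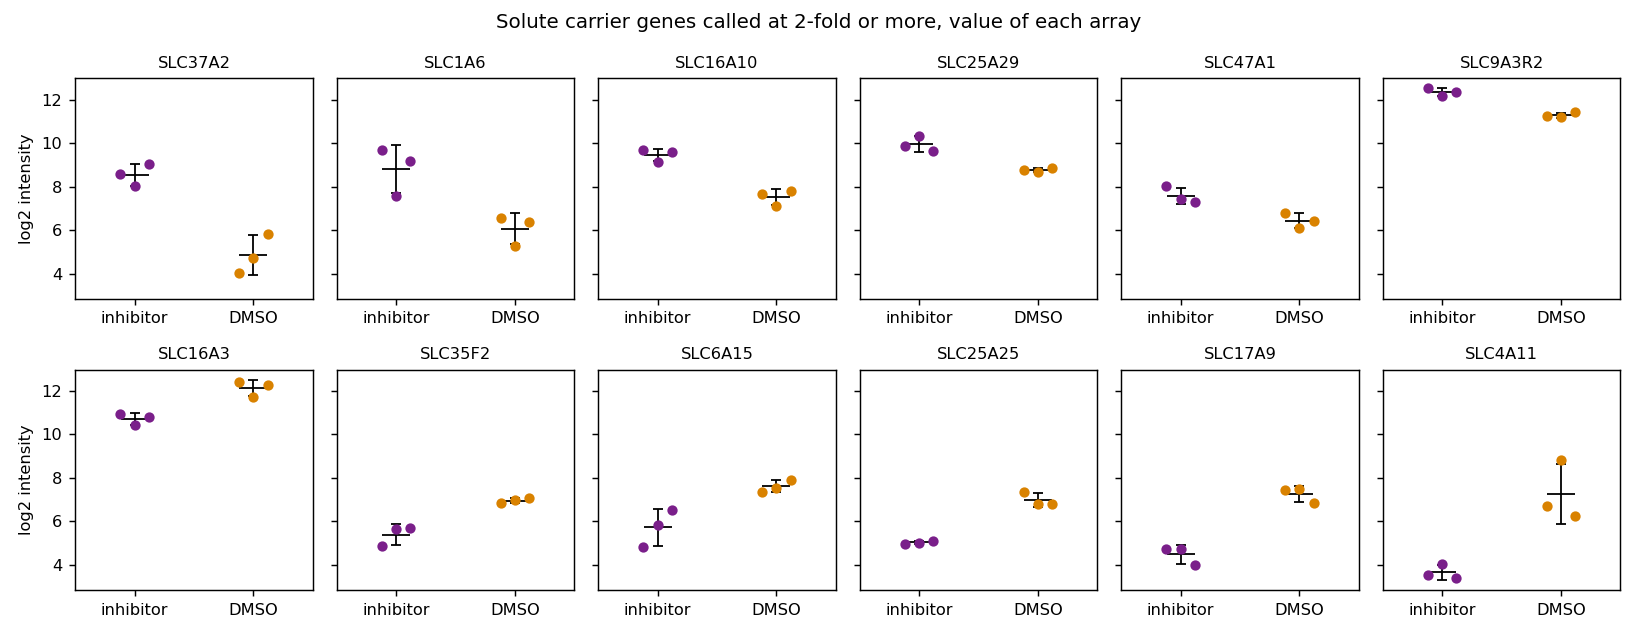
Log2 intensity of each array for the 12 solute carrier genes that passed the test with at least a 2-fold difference, inhibitor left and DMSO right, with the mean and SD of 3 arrays. In each panel the inhibitor arrays lie apart from the DMSO arrays, and SLC37A2 and SLC4A11 have the largest mean differences, 3.70 and -3.61.

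Among amino acid carriers most calls were rises. SLC1A6, a sodium-driven glutamate and aspartate carrier best known from Purkinje cells, had 9.67, 7.58 and 9.19 in inhibitor arrays, against 6.58, 5.25 and 6.4 in DMSO arrays. Replicate 2 was the lowest in both groups, and the inhibitor array was higher by 2.33 to 3.10 within each number. The mean difference was 2.74 ± 0.60, or 6.68-fold (limma adjusted p 0.0317), and 3.36 without inhibitor 2. Leaving out any of the arrays but inhibitor 2 ended the call (limma adjusted p 0.0738 to 0.0947). Dimmer probe sets stood at 2.32, which passed, and 2.06. SLC16A10, a facilitative carrier of aromatic amino acids, had 9.68, 9.16 and 9.58 in inhibitor arrays, against 7.65, 7.10 and 7.80 in DMSO arrays, a 3.89-fold rise (1.96 ± 0.23, limma adjusted p 0.00419). Its 4 dimmer probe sets all rose as well, by 1.75 to 2.38.

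The sodium-coupled neutral amino acid carriers of family SLC38, which supply glutamine and alanine, rose in 3 of 5 tested members (8.16% of all genes). SLC38A1 had 13.55, 13.25 and 13.26 in inhibitor arrays, against 12.83, 12.76 and 12.80 in DMSO arrays (0.56 ± 0.10, limma adjusted p 0.0138). SLC38A2, known in mammals as the starvation-induced system A carrier, had 13.59, 13.68 and 13.24 in inhibitor arrays, against 13.10, 12.90 and 12.72 in DMSO arrays (0.59 ± 0.15, limma adjusted p 0.0458), and its dimmer probe set rose by 0.97. SLC38A6 rose 1.97-fold (0.98 ± 0.15). SLC38A10 (-0.01) and SLC38A9, a lysosomal arginine sensor (0.08), did not pass. One of 4 dimmer SLC38A1 probe sets was at -0.03, the others were at 0.59 to 0.77, and 2 of the 4 passed. The SLC38A1 call was lost without DMSO 1 or DMSO 3 (limma adjusted p 0.05 to 0.0519) and that of SLC38A2 on leaving out any but inhibitor 3 (0.0643 to 0.133). Glutamine synthetase, GLUL, which is no solute carrier, rose 4.85-fold beside them (2.28 ± 0.42, limma adjusted p 0.0180) and was the single call without the block among 14 tested genes of amino acid synthesis and the ATF4 response. With the block CTH (0.57 ± 0.47, block adjusted p 0.0353) and GOT1 (0.33 ± 0.11, 0.0285) were also higher and ALDH18A1 (-0.42 ± 0.26, 0.0148) lower. Of all tested genes 15.6% passed without and 31.6% with the block.

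Among the 21 tested amino acid and peptide carriers outside mitochondria SLC6A15 alone fell without the block. It is a sodium-coupled carrier of branched-chain amino acids and proline, and had 4.83, 5.86 and 6.52 in inhibitor arrays, against 7.36, 7.55 and 7.91 in DMSO arrays, 3.66-fold lower (-1.87 ± 0.42, limma adjusted p 0.0340). The call was lost without any DMSO array or without inhibitor 2 (limma adjusted p 0.0752 to 0.109). In total 5 of 21 tested amino acid and peptide carriers rose and 1 fell (8.16% and 7.49% of all genes), with a median of -0.01. With the block 6 rose and 2 fell (16.5% and 15.1% of all genes). With the replicate block SLC7A6, a light chain that exchanges cationic for neutral amino acids, was also higher (0.44 ± 0.16, block adjusted p 0.0230), and SLC7A3, a cationic amino acid carrier, lower (-0.46 ± 0.16, 0.0324). The light chains SLC7A5, the large neutral amino acid exchanger (-0.12 ± 0.66), and SLC7A11, the cystine-glutamate exchanger (-0.25 ± 0.45), did not pass with or without the block. The heavy chain SLC3A1 and the light chains SLC7A7, SLC7A9 and SLC7A10 were below the filter, and no probe set carried the symbol SLC3A2 or SLC7A8.

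Of the lactate and organic ion carriers tested, most of the calls were falls. SLC16A3, the proton-linked exporter of lactate in glycolytic cells, had 10.96, 10.41 and 10.81 in inhibitor arrays, against 12.44, 11.71 and 12.26 in DMSO arrays. It was 2.65-fold lower (-1.41 ± 0.23, limma adjusted p 0.0112), and every inhibitor array lay below every DMSO array. SLC16A1, which carries lactate and pyruvate in either direction, fell too (-0.62 ± 0.15, limma adjusted p 0.0384). One of its 3 dimmer probe sets stood at 0.07 and the others at -0.50 and -0.63, none of which passed. SLC10A4, a vesicle protein of the bile acid carrier family, fell (-0.98 ± 0.24), and SLC47A1, a proton-coupled exporter of organic cations, rose 2.21-fold, with 8.01, 7.42 and 7.31 in inhibitor arrays, against 6.80, 6.09 and 6.43 in DMSO arrays (1.14 ± 0.26, limma adjusted p 0.0353). A dimmer SLC47A1 probe set stood at 0.70 and did not pass. Of 7 tested genes 1 rose and 3 fell (8.16% and 7.49% of all genes), with a median of -0.62. With the block 1 rose and 4 fell (16.5% and 15.1% of all genes). The carnitine carrier SLC22A5 stood at 0.14 and did not pass. Leaving out any 1 array ended the calls of SLC47A1 (limma adjusted p 0.0533 to 0.103) and SLC10A4 (0.0730 to 0.106), and any but inhibitor 1 that of SLC16A1 (0.0773 to 0.124).

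Genes around lactate and glucose were set beside these carriers. BSG, the chaperone that takes SLC16A1 and SLC16A3 to the cell surface, stood at 0.29 (limma adjusted p 0.0970, and 0.0443 with the block). Of 15 tested genes of glycolysis and glucose entry, PFKFB1 rose (0.81 ± 0.15) and none fell, but with the block LDHA (-0.29), LDHB (-0.37), PFKP (-0.45) and PGAM1 (-0.40) were lower. Among all tested genes 8.16% rose and 7.49% fell (16.5% and 15.1% with the block). The facilitative glucose carrier SLC2A1, which TGF-beta is known to raise in mouse fibroblasts, had 12.40, 12.38 and 12.27 in inhibitor arrays, against 12.64, 12.40 and 12.39 in DMSO arrays. The ranges met and it did not pass (-0.13 ± 0.09, limma adjusted p 0.421, and 0.216 with the block). SLC2A14, another facilitative glucose carrier, was at -0.01, and no probe set carried the symbol SLC2A3.

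Both calls among the 7 tested sugar and polyol carriers were falls, and the block added none. Of all tested genes 7.49% fell, and 15.1% with the block. SLC2A13, the proton-coupled myo-inositol carrier, had 9.17, 9.33 and 9.35 in inhibitor arrays, against 10.01, 9.88 and 10.12 in DMSO arrays (-0.72 ± 0.11, 1.65-fold lower, limma adjusted p 0.00947). SLC2A10, an endomembrane member whose loss in people causes arterial tortuosity, had 7.21, 7.29 and 7.30 in inhibitor arrays, against 7.83, 7.93 and 8.18 in DMSO arrays (-0.71 ± 0.14, limma adjusted p 0.0196). Its dimmer probe sets stood at -0.45 and -0.54 and did not pass. With inhibitor 1, inhibitor 2, DMSO 2 or DMSO 3 left out SLC2A10 no longer passed (limma adjusted p 0.0518 to 0.0703). SLC2A6 had a difference of -0.97 ± 0.38 that did not pass, and SLC2A8 one of -0.10.

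Zinc, magnesium, iron and copper carriers formed a class of 19 tested genes, of which 1 rose and 3 fell (2 and 6 with the block). The shares of all tested genes were 8.16% higher and 7.49% lower, and 16.5% and 15.1% with the block. SLC41A2, a magnesium carrier, had 11.86, 12.04 and 11.94 in inhibitor arrays, against 12.73, 12.87 and 12.68 in DMSO arrays (-0.81 ± 0.08, 1.76-fold lower, limma adjusted p 0.00280). A dimmer probe set of it fell by 1.04. SLC39A13, a zinc carrier of the early secretory pathway whose loss in people causes a form of Ehlers-Danlos syndrome, had 10.28, 10.10 and 10.38 in inhibitor arrays, against 10.96, 10.78 and 11.11 in DMSO arrays (-0.70 ± 0.12, limma adjusted p 0.0162), and its dimmer probe set fell by 0.74. SLC30A6, which pairs with SLC30A5 to load zinc into the secretory pathway, fell (-0.57 ± 0.13, limma adjusted p 0.0317). SLC30A5 itself had 12.95, 12.55 and 12.91 in inhibitor arrays, against 13.36, 12.92 and 13.41 in DMSO arrays, and was lower only with the block (-0.43 ± 0.17, block adjusted p 0.00523). Other members lower only with the block were the copper importer SLC31A1 (-0.69 ± 0.24, 0.0180) and the zinc importer SLC39A6 (-0.64 ± 0.20, 0.0456). SLC39A13 no longer passed with inhibitor 1, DMSO 1 or DMSO 3 left out (limma adjusted p 0.0552 to 0.0640), and SLC30A6 with any 1 array left out (0.0512 to 0.0966).

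The metal carrier that rose was SLC48A1. This protein, which moves haem out of endosomes and lysosomes, was 1.56-fold higher, with 9.85, 9.99 and 9.94 in inhibitor arrays, against 9.16, 9.31 and 9.39 in DMSO arrays (0.64 ± 0.10, limma adjusted p 0.0118). SLC39A8, a surface importer of zinc and manganese, had 9.93, 10.75 and 10.32 in inhibitor arrays, against 8.67, 9.53 and 9.47 in DMSO arrays. Its groups did not overlap and it was 2.16-fold higher, but it passed only with the block (1.11 ± 0.30, limma adjusted p 0.0572, and 0.00233 with the block). Both of its dimmer probe sets, at 1.33 and 1.54, also passed only with the block. The zinc carrier SLC30A4 (0.17) did not pass. SLC40A1, the iron exporter ferroportin, had 4.98, 5.96 and 7.58 in inhibitor arrays, against 4.61, 5.46 and 5.26 in DMSO arrays, so that the groups overlapped and inhibitor 3 was far above the rest (1.06 ± 0.64, limma adjusted p 0.328, and 0.110 with the block).

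Of 15 tested genes that bind metals or handle iron outside the SLC series, 4 rose and 2 fell (7 and 2 with the block). Among all tested genes 8.16% rose and 7.49% fell (16.5% and 15.1% with the block). Metallothionein MT4 rose 5.07-fold (2.34 ± 0.53, limma adjusted p 0.0340), and MT3 was 2.85-fold higher with a call in the block fit alone (block adjusted p 0.00380). The ferric reductase CYBRD1 (1.3 ± 0.44, block adjusted p 0.00861) and the iron regulatory protein ACO1 (0.29 ± 0.12, 0.0413) likewise passed with the block alone. The copper-dependent iron oxidases HEPH (2.23 ± 0.37) and CP (1.02 ± 0.19) and the ferritin-degradation receptor NCOA4 (1.29 ± 0.13) rose. The transferrin receptor TFRC had 8.07, 8.48 and 8.39 in inhibitor arrays, against 9.24, 9.60 and 9.54 in DMSO arrays, and fell (-1.15 ± 0.16, limma adjusted p 0.00714), as did transferrin, TF (-0.98 ± 0.14).

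**Figure D3:**
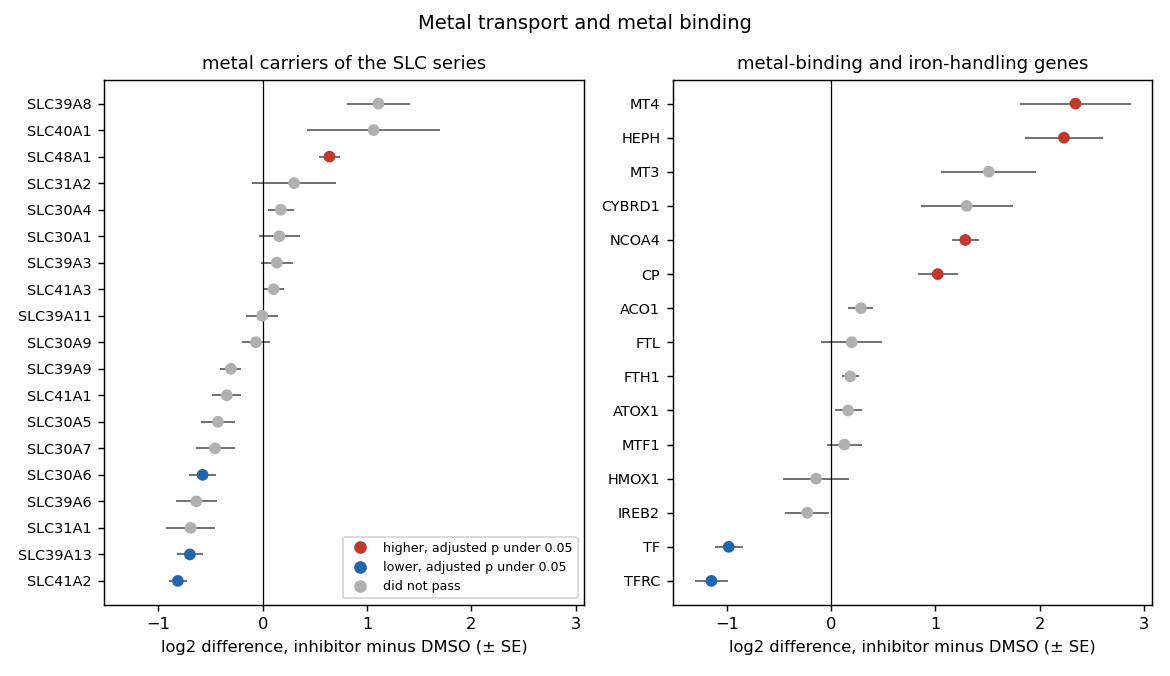
Log2 difference, inhibitor minus DMSO, with its SE (3 arrays per group) for the 19 tested metal carriers on the left and 15 tested metal-binding and iron-handling genes on the right. Called carriers are SLC48A1 at 0.64 and SLC30A6, SLC39A13 and SLC41A2 at -0.57 to -0.81, and on the right MT4 and TFRC lie at the extremes with 2.34 and -1.15.

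Mitochondrial carriers, family SLC25, move metabolites, nucleotides and ions across the inner membrane, and 28 of 33 were tested. Of these 2 rose and 5 fell (5 and 8 with the block), where over all tested genes 8.16% rose and 7.49% fell (16.5% and 15.1% with the block). SLC25A25, a calcium-regulated exchanger of ATP-magnesium for phosphate, had the largest fall of the family, with 4.98, 5.00 and 5.11 in inhibitor arrays, against 7.37, 6.78 and 6.80 in DMSO arrays. It was 3.87-fold lower (-1.95 ± 0.19, limma adjusted p 0.00244), with the inhibitor arrays close to each other and all below the DMSO arrays. Its relative SLC25A24 was lower with the block alone (-0.28 ± 0.08, block adjusted p 0.0232). SLC25A14, a member related to the uncoupling proteins (-0.76 ± 0.10, limma adjusted p 0.00618), and the pyrimidine nucleotide carrier SLC25A36 (-0.76 ± 0.11, 0.00837) fell, the second also by a dimmer probe set at -1.43. SLC25A38, needed for glycine import in haem synthesis (-0.73 ± 0.15), and the glutamate carrier SLC25A22 (-0.51 ± 0.11) fell too. SLC25A29, a carrier of basic amino acids, rose 2.27-fold, with 9.89, 10.35 and 9.63 in inhibitor arrays, against 8.77, 8.70 and 8.86 in DMSO arrays (1.18 ± 0.19, limma adjusted p 0.0113). SLC25A21, the oxodicarboxylate carrier, rose as well (0.57 ± 0.13). The calls lost without single arrays were those of SLC25A21 (any array, limma adjusted p 0.0594 to 0.102), SLC25A22 (DMSO 1, DMSO 3, inhibitor 2 or inhibitor 3, 0.0696 to 0.0905) and SLC25A38 (any DMSO array or inhibitor 1, 0.0706 to 0.0810).

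The carriers that exchange ADP and ATP and supply phosphate for ATP synthesis did not pass. These are the adenine nucleotide translocases SLC25A6 (0.07), SLC25A4 (0.16) and SLC25A5 (-0.29, lower with the block at adjusted p 0.0261) and the phosphate carrier SLC25A3 (-0.04), and the citrate carrier SLC25A1 (-0.19) did not pass either. SLC25A6 and SLC25A3 had values of 13.96 to 15.02 in all arrays, close to the top of the scale, where probe sets can respond less than in proportion. A dimmer SLC25A6 probe set rose by 0.53. With the block the aspartate-glutamate carrier SLC25A12 (0.39), the carnitine-acylcarnitine carrier SLC25A20 (0.26) and SLC25A46, an outer-membrane protein of the family (0.44), were higher and SLC25A30 (-0.63) lower.

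Carriers of protons, bicarbonate, chloride and calcium included the largest fall among the tested solute carrier genes. SLC4A11, a member of the bicarbonate carrier family that conducts protons and is known from the corneal endothelium, had 3.52, 4.05 and 3.39 in inhibitor arrays, against 6.70, 8.85 and 6.25 in DMSO arrays. DMSO 2 was far above the other DMSO arrays. Inhibitor 1 and inhibitor 3 lay below the filter value and inhibitor 2 next to it, so the size of the difference may depend in part on the floor, which was not tested. The difference was -3.61 ± 0.66, or 12.2-fold lower (limma adjusted p 0.0174), and -2.82 without DMSO 2. The call was lost without inhibitor 1 or inhibitor 3 (limma adjusted p 0.0587 to 0.0619). SLC4A7, a sodium-bicarbonate cotransporter that takes base into the cell, had 9.95, 10.24 and 10.12 in inhibitor arrays, against 10.76, 11.07 and 10.73 in DMSO arrays (-0.75 ± 0.13, limma adjusted p 0.0155), a call lost without inhibitor 1 (0.0553). SLC26A11, an anion carrier, rose (0.44 ± 0.11, limma adjusted p 0.0437), a call lost without any 1 array (0.0695 to 0.127).

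Other ion carriers of this class moved with the block alone. SLC9A9, an endosomal sodium-proton exchanger, had 4.85, 3.96 and 5.49 in inhibitor arrays, against 6.36, 4.90 and 7.17 in DMSO arrays. The groups overlapped, yet the inhibitor array was lower within each number (-1.38 ± 0.64, limma adjusted p 0.213, and 0.00587 with the block). SLC24A2, a potassium-dependent sodium-calcium exchanger known from cones and neurons, was 2.22-fold higher (1.15 ± 0.41, limma adjusted p 0.117, and 0.0149 with the block). With the block SLC9B2 (-0.84) was also lower and the potassium-chloride cotransporter SLC12A7 (0.63) higher. Of 16 tested genes 1 rose and 2 fell (8.16% and 7.49% of all genes), and 3 rose and 4 fell with the block (16.5% and 15.1% of all genes). The sodium-proton exchanger SLC9A8 (0.08) and SLC12A4, another potassium-chloride cotransporter (-0.05), did not pass.

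SLC9A3R2, a PDZ scaffold that binds sodium-proton exchangers, rose 2.09-fold. It had 12.52, 12.19 and 12.36 in inhibitor arrays, against 11.25, 11.21 and 11.42 in DMSO arrays (1.06 ± 0.11, limma adjusted p 0.00281), but a dimmer probe set stood at 0.15 and did not pass. Its relative SLC9A3R1 (-0.04), SLC7A6OS (0.11) and SLC4A1AP (-0.11) did not pass. A list of 10 tested genes was drawn up as partners and regulators of carriers, a role not tested here. It holds SLC9A3R2 too. On it 2 rose and 2 fell (8.16% and 7.49% of all genes), and 3 rose and 3 fell with the block (16.5% and 15.1%). ITM2A, another gene of the list, rose (0.33 ± 0.08). The hyaluronan receptor CD44 (-1.25 ± 0.23) and SGK1, a kinase that raises the surface level of several carriers (-0.85 ± 0.17), fell, and CHP1, a partner of sodium-proton exchangers, was lower with the block alone (-0.37 ± 0.14, block adjusted p 0.0309).

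Vesicular and neurotransmitter-type carriers held 1 call in 5 tested genes, and 2 with the block (15.6% and 31.6% of all genes). SLC17A9, which loads ATP and other nucleotides into vesicles, had 4.74, 4.71 and 3.99 in inhibitor arrays, against 7.46, 7.50 and 6.84 in DMSO arrays. It was 6.88-fold lower (-2.78 ± 0.28, limma adjusted p 0.00253), the differences within numbers ran from -2.72 to -2.85, and a dimmer probe set fell by 1.00. Inhibitor 3 was below the filter value and the other inhibitor arrays not far above it, so the size of the difference may depend in part on the floor. This was not tested. The taurine carrier SLC6A6 had 6.66, 7.66 and 6.27 in inhibitor arrays, against 8.18, 9.02 and 7.67 in DMSO arrays. Inhibitor 2 nearly reached DMSO 3, and the gene was 2.69-fold lower with a call in the block fit alone (-1.43 ± 0.46, limma adjusted p 0.0952, and 0.00124 with the block). The creatine carrier SLC6A8 (0.04), the lysosomal sialic acid carrier SLC17A5 (0.04) and the vesicular polyamine carrier SLC18B1 (0.11) did not pass.

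In limma without the block 15.6% of all genes passed. No such call was among the 10 tested carriers of vitamins, choline, fatty acids and other solutes, the 2 of nucleosides or 1 of phosphate. Unadjusted p-values under 0.05 were found for 3, 0 and 0 of them. With the block SLC44A5, of the choline carrier family, (0.81 ± 0.22, block adjusted p 0.0338), the choline carrier SLC44A1 (0.51 ± 0.28, 0.0389) and SLC46A2 (0.70 ± 0.54, 0.0139) were higher, and SLC52A3, a riboflavin carrier (-0.46 ± 0.17, 0.0227), lower. The folate carrier SLC19A1 (-0.12), the fatty acid carrier SLC27A4 (-0.36), the nucleoside carriers SLC29A1 (0.21) and SLC29A3 (0.17) and the phosphate carrier SLC20A2 (0.35) did not pass with or without it.

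Among 23 tested genes listed as other transporters outside the SLC series 5 passed (21.7%, against 15.6% of all genes), and 11 with the block (47.8%, against 31.6%). These counts take in ABCE1, ABCF2 and ABCF3, which belong to the ABC family by name but are not membrane transporters. The organic anion carrier SLCO4A1 fell (-1.51 ± 0.22, limma adjusted p 0.00831), 1 of 2 tested of its series. Among 7 tested ATP-driven pumps and aquaporins 3 fell, and the calcium pump ATP2B2 was the one with at least a 2-fold difference (-1.24 ± 0.24, limma adjusted p 0.0196). Of 14 tested genes of the ABC family ABCC4, an exporter of cyclic nucleotides and prostaglandins, was the one that passed without the block. It rose 2.07-fold (1.05 ± 0.10, limma adjusted p 0.00186). With the block the drug exporters ABCG2 (1.29 ± 0.61, block adjusted p 0.0183) and ABCB1 (1.00 ± 0.43, 0.0179) and the mitochondrial ABCB10 (0.49 ± 0.14, 0.0197) were higher too, and ABCC5 (-0.44 ± 0.17, 0.0235), ABCF2 (-0.38 ± 0.19, 0.0303) and ABCC1 (-0.28 ± 0.09, 0.0480) lower.

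**Figure D4:**
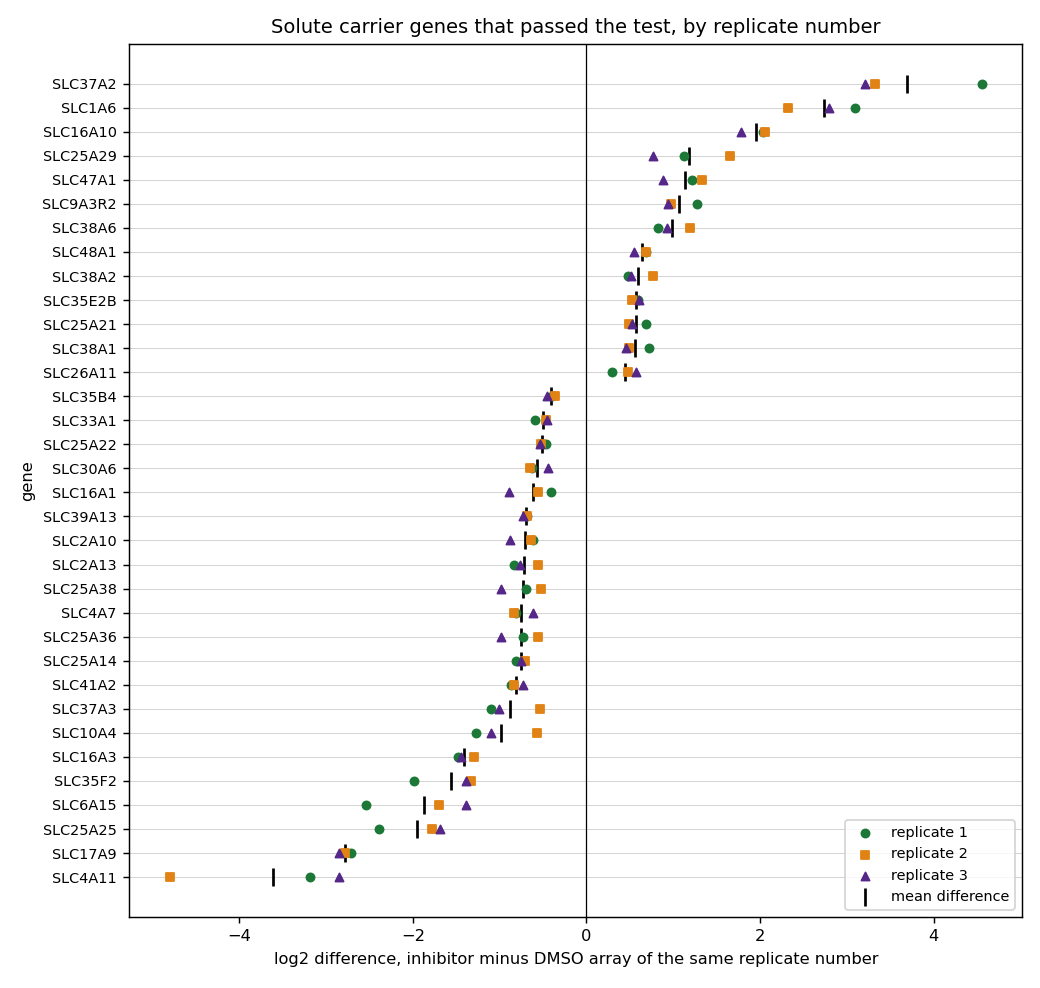
Log2 difference between the inhibitor and the DMSO array of the same replicate number (points) and the mean difference (bar) for the 34 solute carrier genes that passed. All pairs lie on one side of 0 for each gene, which follows from groups that do not overlap. The widest scatter is that of SLC4A11, from -4.80 to -2.85.

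Several solute carrier genes differed more between replicate numbers than between treatments. SLC22A15L, of the organic ion family, had 7.06, 4.13 and 6.66 in inhibitor arrays 1 to 3, against 8.05, 5.12 and 7.63 in DMSO arrays. The inhibitor array was lower by almost the same amount in each number, with differences of -0.99, -0.98 and -0.98, and it passed with the block alone (limma adjusted p 0.582, and 0.00445 with the block). SLC7A5 had 9.98, 8.35 and 9.47 in inhibitor arrays, against 10.43, 8.11 and 9.62 in DMSO arrays, with no common direction. SLC7A11 and SLC1A4 were also lowest on average in replicate 2, as was the amino acid synthesis gene PSAT1, with 12.95, 11.45 and 12.11 in inhibitor and 12.53, 10.92 and 12.49 in DMSO arrays.

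The 8 tested solute carrier genes on the Z chromosome were all lowest in replicate 2, as the mean of both groups, against 36 of the 134 others with a known chromosome. This was not particular to carriers: over all tested genes 80.9% of the Z-linked and 28.4% of the others were lowest there. The median difference between replicate 2 and the other numbers was -0.41 for the 8 Z-linked solute carrier genes, against 0.08 for the 134 others. Over all genes it was -0.52 for 398 Z-linked and 0.04 for the remaining 7661. SLC46A2, SLC44A1, SLC30A5, SLC24A2 and SLC25A46 are Z-linked, and each of them passed only with the replicate block. In all, 27 solute carrier genes passed with the block alone, 10 of them higher and 17 lower. Each differed in the same direction in 3 of 3 numbers, but a call with the block favours such genes, so this is no further support.

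**Figure D5:**
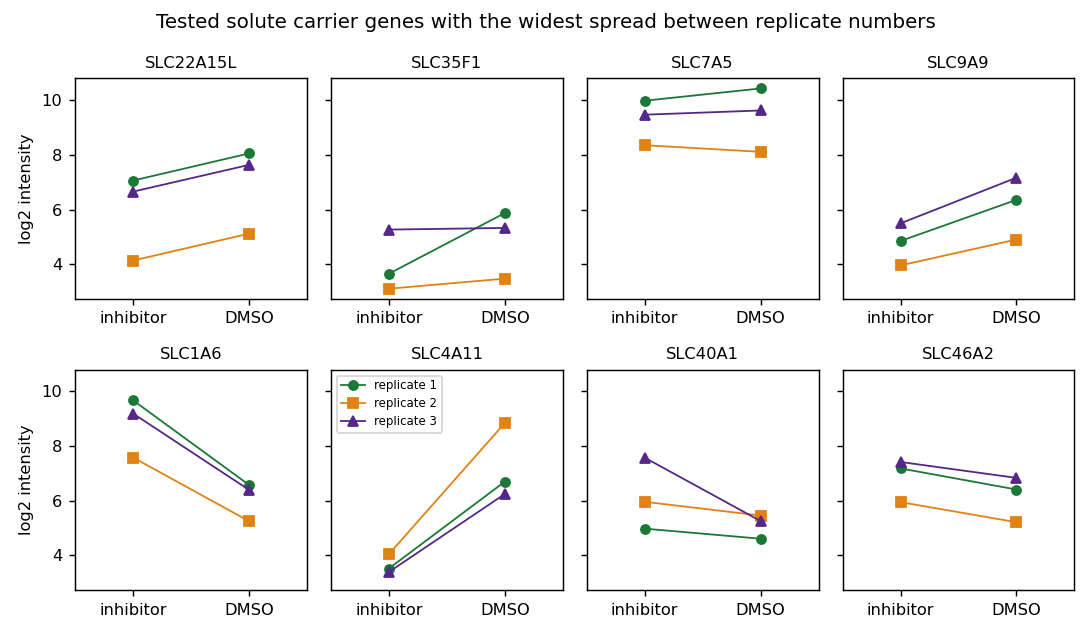
Log2 intensity of the 8 tested solute carrier genes whose mean differed most between replicate numbers, inhibitor left and DMSO right, with lines joining arrays of the same number. Replicate 2 is the lowest in both groups for SLC22A15L, SLC35F1, SLC7A5, SLC9A9, SLC1A6 and SLC46A2, and the highest for SLC4A11.

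Of the 34 calls 14 held without each single array and 20 were lost without at least 1, whereas all 34 were also made with the block. Those that held were SLC37A2, SLC16A10, SLC25A29, SLC38A6, SLC48A1, SLC9A3R2, SLC16A3, SLC17A9, SLC25A25, SLC25A14, SLC25A36, SLC2A13, SLC35F2 and SLC41A2. For 21 of the 34 genes a dimmer probe set was tested as well. Of these 38 dimmer probe sets 18 passed and 2 had the opposite sign, both described above for SLC16A1 and SLC38A1. Those of SLC4A7 (-0.83 and -0.57), SLC30A6 (-0.40), SLC25A22 (-0.27) and SLC35E2B (0.78) did not pass. Of those of SLC33A1 (-0.57 and -0.52) 1 passed, and of those of SLC37A3 (-0.68, -0.81 and -0.71) 2 passed. The probe set of 11 called genes is of a kind that can bind several transcripts, among them SLC37A2, SLC1A6, SLC16A10, SLC17A9 and SLC41A2.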

How the data were processed

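Total RNA of 6 cultures, 3 with inhibitor and 3 with DMSO, was hybridised to 1 Affymetrix chicken array each. The authors deposited 1 log2 intensity per probe set and array. GCRMA and Partek 6.4 are the tools listed in the submitters' processing notes, with settings not given in the sources used here. Scanner files were not used. GCRMA compresses dim probe sets to a floor, so folds of dim genes can depend on it. The deposited values run from 1.12 to 16.0, with array medians of 2.98 to 3.03.

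The table has 38535 probe sets, of which 96 are controls and were dropped. Tests ran on the 16567 others that reached a log2 value of 4 on 3 or more arrays. Inhibitor was compared with DMSO by limma 3.58.1 (lmFit and eBayes with trend, R 4.3.3, two-sided) without a block, and p-values were adjusted over these 16567 by Benjamini-Hochberg. The number of arrays limits the precision. Probe sets were named from the platform annotation, using those with 1 symbol, and 278 of the 282 solute carrier symbols were found in RefSeq, which gave their chromosome. The code was tested on simulated data.

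Deviations from the group means correlated at 0.63, 0.67 and 0.45 between arrays of the same replicate number and at -0.45 to -0.14 between unlike numbers. Deviations cancel out within a group, so positive values for the same number make those for unlike numbers negative on average. The latter are thus no further support. The pairing is taken from the same-number correlations, since the labels give the numbers without saying what they share.

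Genes named are all that passed, the 3 of each substrate class with the highest mean, those of at least a 2-fold difference that passed with the block alone, and a few glucose and amino acid carriers. The other block-only genes and further genes that did not pass were named after their values were seen. The members, classes and lists were chosen with earlier results of these data known, and some rare families were put in a class after the symbols on the array were read. Alternatives were the replicate block, no filter and a filter at 5, median centring, quantile normalization, eBayes without trend, no moderation, the mean of a gene's probe sets, and each array left out.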

Additional observations from a re-analysis of the deposited data

How the results depend on the processing

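The direction of the 34 called genes was the same under every alternative run, but the number of calls was not. Most alternatives could not have changed the direction. The block, the filters, eBayes without trend and no moderation leave the difference as it is. Leaving out arrays cannot reverse it where the groups do not overlap, as for all 34. Only median centring, quantile normalization and the mean of a gene's probe sets could have done so. Against 13 higher and 21 lower solute carrier genes, the replicate block gave 23 and 38, no filter 7 and 11, no moderation of the variance 6 and 7, and leaving out single arrays 6 to 9 and 11 to 14. Leaving out replicate 2 of both groups, an alternative chosen after seeing the data, gave 5 and 12. Shares over all genes were taken for the block alone, as given above. Whether the share of lower solute carrier genes stays above that of all genes under the other alternatives was not tested. A filter at 5, median centring, quantile normalization, eBayes without trend and the mean of a gene's probe sets ended 1, 1, 2, 4 and 5 of the 34 calls. No filter ended 16, no moderation 22, the loss of replicate 2 of both groups 18, and single arrays 12 to 17. Fewer arrays enter the last 2, and the cause of the others was not tested. The replicate block ended none.

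In the main fit the median difference was -0.245 for Golgi and endoplasmic reticulum carriers, -0.116 for mitochondrial and -0.620 for monocarboxylate and organic ion carriers. It was 0.037 for vesicular and neurotransmitter-type carriers, -0.056 for those of protons, bicarbonate, chloride and calcium, and -0.065 for metal carriers. Values under some alternatives follow. Several lie close to these, and the cause of the differences was not tested. For Golgi and endoplasmic reticulum carriers the median was -0.26 with a filter at 5, -0.24 with median centring, -0.20 with quantile normalization, -0.34 with the mean of a gene's probe sets, -0.19 without replicate 2 of both groups and -0.25 to -0.17 without single arrays. For mitochondrial carriers it was -0.042 with a filter at 5 and -0.19 to -0.08 without single arrays. Without single arrays it ran from -0.76 to -0.21 for monocarboxylate and organic ion carriers, from -0.082 to 0.079 for vesicular and neurotransmitter-type carriers and from -0.176 to 0.012 for carriers of protons, bicarbonate, chloride and calcium. For metal carriers it was -0.17 with the mean of a gene's probe sets. Dim values may limit the sizes given for SLC37A2, SLC4A11 and SLC17A9, which was not tested.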
